A study of Bos taurus with 6 samples.

Results

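The sites described here are strong, isolated peaks of trimethylated histone H3 lysine 4 (H3K4me3) on the autosomes of bovine embryonic stem cells, at which no peak of trimethylated lysine 27 (H3K27me3) lay nearby. They were chosen by the deposited peak lists themselves. A summit of line A was kept when line B had a summit at most 1 kb away, when both summits had a score at or above the 75th percentile of the autosomal summits of their own list, when neither had a further H3K4me3 summit of its own list up to 5 kb away, and when no H3K27me3 summit of either line lay that close. Of 19966 autosomal H3K4me3 summits of line A, 18712 were shared with line B, and 2744 of these met every condition (14.7% of the shared sites, 95% Wilson interval 14.2% to 15.2%). Scores, the absence of H3K27me3 and isolation up to 5 kb are therefore properties of the selection and are given below only as a description.

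The cells were blastocyst-derived bovine embryonic stem cells of 2 independent lines, A and B, both at passage 12. Both were grown on mouse embryonic fibroblast feeders in a custom basal medium free of TGFb, with 20 ng/mL FGF2 and 2.5 μM of the WNT pathway inhibitor IWR1, and the feeders were removed with magnetic beads before chromatin was made. ChIP-seq gave 1 library per mark and line, and 1 list of peak summits per library, 4 lists in all, with positions on the UMD3.1 assembly. No treated or differentiated cells are part of the comparison, so lines A and B are the only groups, and they differ in nothing else that the labels give. The lists carry no gene names, so the identity of the cells could not be checked against marker genes, and the genes and sequences at the sites were not analysed here.

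H3K4me3 is laid down by the SET1 and MLL complexes, which are drawn to promoters with unmethylated CpG-rich DNA, and it is typical of the nucleosomes beside active transcription starts. H3K27me3 is the mark of Polycomb repressive complex 2. In pluripotent cells many promoters of developmental genes carry both marks and are called bivalent, while promoters of genes used in most cells usually carry H3K4me3 alone. Whether the sites described here are promoters was not analysed.

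The score is the authors' own value for each peak, a −log10 p or q value, and is read here within a list only, because it moves with the depth of the library, which is unknown. In line A the members had a median of 91.8 and a range of 68.3 to 189, against a median of 38.6 over all 19966 autosomal summits of that list. Their median in line B was 163 and their range 114 to 331, against 59.2 over 20961 summits. The members thus formed a narrow band, in which the highest score was 2.77 times the lowest in line A and 2.91 times the lowest in line B. At the threshold of line A the lowest 3 members all scored 68.32, and the nearest 3 sites that failed on that score alone had 68.22 to 68.28. At the threshold of line B the lowest 3 members had 113.74 to 113.79 and the nearest 3 outside had 113.72.

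More strong sites had a second H3K4me3 summit nearby than had H3K27me3. Of 4970 shared summits above the threshold in line A, 4019 had a partner above the threshold of line B (80.9%). Of these 4019, 1033 had another H3K4me3 summit within 5 kb (25.7%), 394 had H3K27me3 within 5 kb (9.80%) and 152 had both, which left 2744 (68.3%). Put the other way, 74.3% of the 4019 were isolated, against 64.4% of all 18712 shared sites. Free of H3K27me3 were 90.2% of the 4019, against 68.3% of all shared sites. Of the 7312 shared sites below both list medians, 32.3% were isolated and free of H3K27me3 by the same distances, and of the 7381 with other scores 50.4% were. The 242 strong and isolated sites with H3K27me3 had it in both lines in 112 cases, while in 104 it came from line A only and in 26 from line B only. Among all 8831 shared sites that were isolated and free of H3K27me3, 2744 were strong in both lines, 525 only by their score in line A and 762 only by that in line B. A change from above the threshold in one line to below the list median in the other was rare, with 6 sites high in line A and 19 high in line B.

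**Figure D1:**
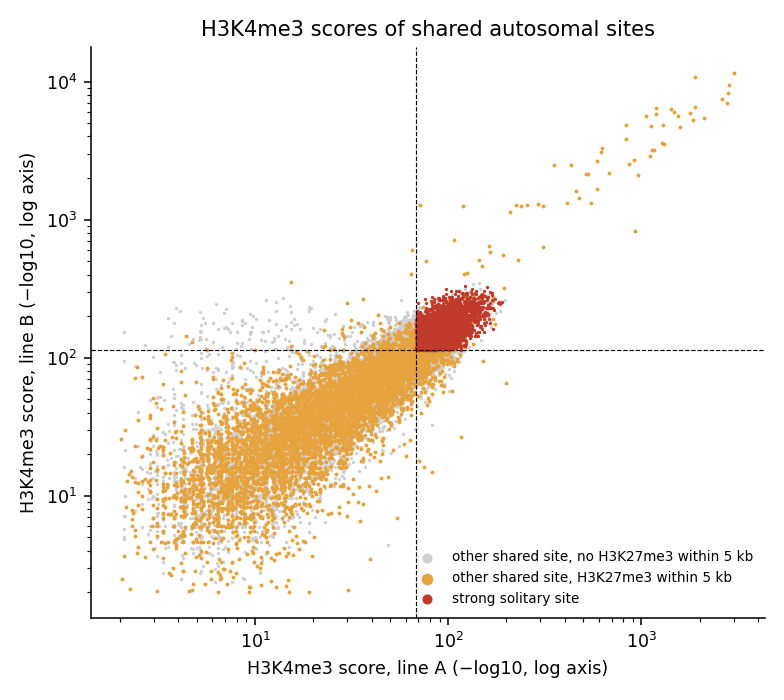
H3K4me3 score of each of the 18712 shared autosomal sites in line A (x axis) and line B (y axis), both log axes of a −log10 value, with dashed lines at the thresholds of 68.3 and 114. The 2744 strong solitary sites fill the corner above both thresholds and end at 189 and 331, and nearly all sites beyond them have H3K27me3 within 5 kb.

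The very highest H3K4me3 scores were not among the members. In line A 55 shared summits scored above the highest member, up to 3033 in that list, and 54 of them had an H3K27me3 summit within 1 kb. The median distance over the 55 was 9 bases. Of the 55, 45 also had another H3K4me3 summit within 5 kb, and 44 failed both conditions. In line B 67 shared sites scored above the highest member, up to 11465. The list of line B has 66 such autosomal summits, since 1 of its summits can be the partner of several of line A. Of the 67 sites, 65 had H3K27me3 within 5 kb and 62 within 1 kb. The median distance over the 67 was 14 bases. Of the 67, 55 had another H3K4me3 summit nearby, and 53 failed both conditions. A site above every member in both lines has to fail one of these conditions, so this is a description of which one it failed. Of these sites, 52 were above the highest member in both lines. Of the 55, 23 were on chromosome 27 and 10 on chromosome 4. The single one of the 55 without H3K27me3, at 35296241 on chromosome 24, scored 196 and 263 and was left out because line B had a second H3K4me3 summit 2078 bases away. What sets these scores was not tested.

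The 10 strongest members, ranked by the mean of their ranks in both lines, lay on 9 chromosomes. One of the highest was at 26243488 on chromosome 25 (summit of line A, here and below), with scores of 164 (line A) and 298 (line B) and summits 11 bases apart. Tied with it by mean rank, the site at 42435042 on chromosome 15 scored 167 and 294 with summits 4 bases apart. The third, at 49265014 on chromosome 29, scored 158 and 325 with summits 28 bases apart. These 3 sites ranked 16, 10 and 29 among the members in line A and 10, 16 and 2 in line B, so none of them led in both lines. The others were at 4684920 on chromosome 20, 56754280 and 28410476 on chromosome 19, 26472603 on chromosome 18, 91067103 on chromosome 9, 1187901 on chromosome 1 and 45816813 on chromosome 7, scoring 149 to 174 (line A) and 266 to 303 (line B). The highest score of line A alone, 189, was at 33372334 on chromosome 25, which ranked 95 in line B with 252. The highest of line B, 331, was at 120961569 on chromosome 3, which ranked 306 in line A with 122.

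Within the members the order of the scores was only partly shared between lines. Across the 2744 sites Spearman's rho was 0.49 and Pearson's r of the log10 scores 0.52, against 0.88 and 0.86 across all 18712 shared sites. Other sets with a limited score range had values near those of the members, with rho of 0.45 at the middle solitary sites, 0.52 at the strong grouped ones and 0.48 at the strong solitary sites with H3K27me3. The selection cuts the range of both scores and the sites share their libraries, so these are descriptions without a test. In all, 853 members were at or above the 90th percentile of both lists (31.1%), 418 of the list of line A only, 479 of that of line B only, and 994 (36.2%) fell below it in both.

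Each line had 1 library per mark. With 2 lines an exact paired permutation test over lines cannot give a two-sided p below 0.5, so no comparison below carries a test, and values are set side by side in each line. Intervals are 95% Wilson intervals for shares and order-statistic intervals for medians. They cover counting error over sites alone, and sites of a library are not independent replicates. The sets most like the members served for comparison. They are sites shared, isolated and free of H3K27me3 in the same way, but with both scores below their list medians (2364 weak solitary sites) or with any other mix of scores (3723 middle solitary sites).

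The summits of the lines nearly coincided. The selection allowed up to 1000 bases, yet the median distance between the summit of line A and that of line B was 43 bases at the members (interval 41 to 45), and 2173 of them lay within 100 bases (79.2%, Wilson interval 77.6% to 80.7%). Over all 18712 shared sites the median was 54 bases (53 to 55), with 70.5% within 100 bases (69.8% to 71.1%), so close summits were general. At 19 members the summits fell on the same base. The middle solitary sites had a median of 46 bases (44 to 48) with 76.8% within 100 bases (75.4% to 78.1%), and the weak solitary sites 61 bases (58 to 65) with 66.9% (65.0% to 68.7%). Members and weak sites thus had intervals that did not meet, while the medians and the shares within 100 bases of members and middle sites had intervals that did. Within 200 bases members and middle sites stood apart by their intervals, at 91.3% (90.1% to 92.3%) and 88.9% (87.9% to 89.9%). The 881 strong sites without H3K27me3 but with another H3K4me3 summit within 5 kb had a median of 46 bases (41 to 49). Among the members themselves the distance did not follow the score. In 5 equal classes by mean rank, from the strongest to the weakest, the medians were 42, 44, 46, 43.5 and 42 bases.

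**Figure D2:**
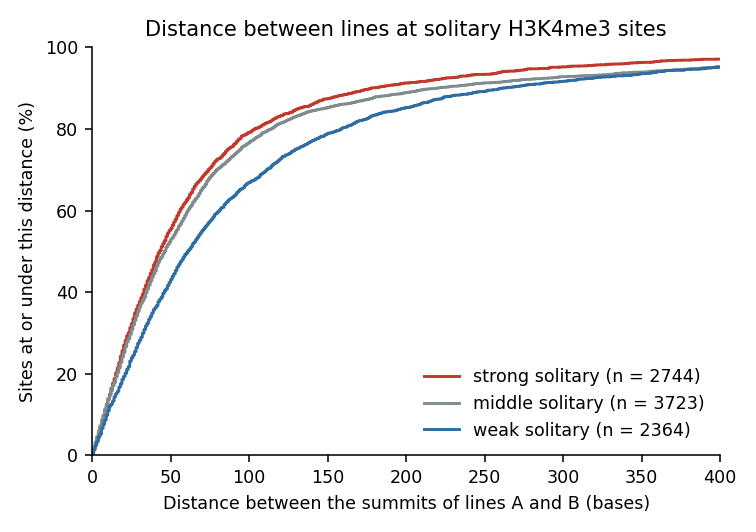
Cumulative share of solitary sites without H3K27me3 (y axis, percent) by the distance between the summits of lines A and B (x axis, bases), for strong, middle and weak sites. The strong and middle curves run close together, with 79.2% and 76.8% at 100 bases, and the weak curve lies below both at 66.9%.

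A small tail of members had summits far apart. At 49 of the 2744 the distance was over 500 bases. The widest was at 19907546 on chromosome 7, where the summit of line B lay 989 bases away, with scores of 101 and 223. It was followed by 29919080 on chromosome 15 (934 bases, scores 102 and 207), 1790024 on chromosome 25 (873 bases, 89.96 and 184), 46473877 on chromosome 4 (863 bases, 100.1 and 139) and 60823775 on chromosome 5 (855 bases, 84.3 and 115). Each of these is a single summit in each list. The lists hold no peak widths, so a shifted top of 1 peak and 2 neighbouring peaks, each called in 1 line, cannot be told apart. Over all members the summit of line B had the higher coordinate in 1443 and that of line A in 1282 (53.0% for line B, Wilson interval 51.1% to 54.8%). For the middle solitary sites the share was 50.4% (48.8% to 52.0%).

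**Figure D3:**
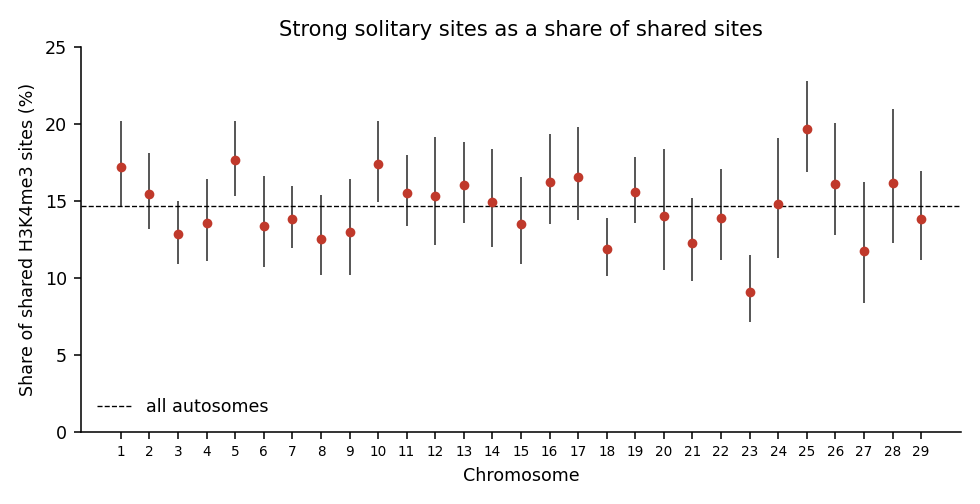
Strong solitary sites as a percent of all shared H3K4me3 sites of each autosome (points) with 95% Wilson intervals (bars), and the share over all autosomes (dashed line, 14.7%). Chromosome 25 is highest at 19.7% and chromosome 23 lowest at 9.08%.

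The members were spread over all 29 autosomes, with 30 on chromosome 27 up to 172 on chromosome 19. Per Mb they ranged from 0.549 on chromosome 9 to 3.17 on chromosome 25, followed by 2.69 on chromosome 19 and 2.08 on chromosome 18, with a median of 1.09. The density followed that of all shared H3K4me3 sites (Spearman's rho 0.91 over 29 chromosomes of 1 genome, a description). As a share of the shared sites of a chromosome, members made up 136 of 691 on chromosome 25 (19.7%, Wilson interval 16.9% to 22.8%) and 62 of 683 on chromosome 23 (9.08%, 7.15% to 11.5%). With 10 kb, not 5 kb, cleared of other H3K4me3, chromosome 25 held 3.96% of the members (3.24% to 4.83%) in place of 4.96%. That interval takes in the chromosome's 3.69% of all shared sites, so its excess over that base was no longer beyond counting error. The base has no isolation cut. With 5 kb cleared, members were 40.7% of the 334 isolated sites free of H3K27me3 on chromosome 25, against 31.1% over all autosomes. This share was not taken with 10 kb cleared. As a share of all shared sites, the intervals of chromosomes 5 (17.6%) and 10 (17.4%) also lay above the 14.7% over all autosomes. Besides chromosome 23, that of chromosome 18 (11.9%) lay below it.

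The chromosomes at the ends of this order differed in which condition removed sites. On chromosome 25, 27.8% of the shared sites were strong in both lines, against 21.5% over all autosomes. On chromosome 23 only 16.3% were strong and 53.7% were isolated in both lines, against 64.4% over all autosomes, while 72.0% were free of H3K27me3, against 68.3%. Chromosome 27 had as many strong sites as chromosome 25 by share (27.7%), but 54.7% of its shared sites were free of H3K27me3, and 52.1% of its strong sites were isolated, the lowest share of the autosomes, against 74.3% over all. In the end 42.3% of its strong sites became members, against 68.3% over all autosomes. Chromosome 27 also held 23 of the 55 sites that scored above every member in line A. Along the chromosomes the share varied little. In 5 equal parts of the span, from the first to the last, members were 14.9%, 15.1%, 14.7%, 14.9% and 14.1% of the shared sites.

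Beyond the 5 kb that the selection cleared, the next H3K4me3 summit lay a median of 31.5 kb away in line A (interval 29.9 to 33.3 kb). The median for line B was 30.5 kb (29.1 to 32.2 kb). A further summit between 5 and 20 kb was present at 929 members in line A (33.9%, Wilson interval 32.1% to 35.6%) and 966 in line B (35.2%, 33.4% to 37.0%). Over all 12047 isolated shared sites, with H3K27me3 or not, these shares were 36% and 37.4%, close to those of the members. The weak solitary sites had a summit in that range at 38.3% and 40.2%, with intervals of 36.4% to 40.3% and 38.3% to 42.2%. Within 100 kb to each side the members had a median of 3 other H3K4me3 summits in each line, as did the middle and the weak solitary sites. In line A 399 members (14.5%) had no other summit within 100 kb, and 388 (14.1%) had none in line B. Of the weak sites these were 18.1% and 17.4%.

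The member farthest from other H3K4me3 was at 82962792 on chromosome 6. Its next H3K4me3 summit was 2.04 Mb away in both lines and its next H3K27me3 summit 2.70 Mb (line A) and 2.80 Mb (line B) away. Its scores were 86.98 and 137, with summits 83 bases apart. The next in order were at 11227855 on chromosome 24 (1.49 Mb in each line), 68233613 on chromosome 12 (1.36 Mb), 46910453 on chromosome 3 (1.35 Mb) and 23926899 on chromosome 1 (1.45 and 1.25 Mb). Their scores were 77.6 to 95.1 (line A) and 115 to 153 (line B). In line B all 5 of these sites lay below the members' median of 163, and in line A 4 of the 5 lay below 91.8. Over all members this distance did not follow the score. In 5 equal classes by mean rank its medians were 29314.5 to 32758 bases (line A) and 28507 to 32179 bases (line B), in no order of score.

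The neighbouring H3K4me3 summit was more often strong beside a member than beside a weak solitary site. In line A 890 of 2744 neighbours were at or above the 75th percentile of the list (32.4%, Wilson interval 30.7% to 34.2%), and in line B 948 (34.5%, 32.8% to 36.3%). Beside the weak sites it was 24.7% (23.05% to 26.5%) and 25.4% (23.7% to 27.2%), and beside the middle sites 29.9% and 31.2%. The order was the same in both lines. Where the neighbour was 50 to 100 kb away, 34.4% (30.6% to 38.4%) of the neighbours of members were strong in line A, against 27.8% (23.4% to 32.8%) for weak sites, and these intervals met. In line B the shares were 38.2% (34.3% to 42.3%) and 28.3% (23.7% to 33.3%), and the intervals did not meet. Neighbours of members also carried H3K27me3 within 1 kb less often than those of weak sites, at 16.1% (14.7% to 17.5%) and 11.9% (10.7% to 13.1%) against 20.0% (18.4% to 21.7%) and 15.5% (14.08% to 16.996%). Beside the middle sites these shares were 17.8% (16.6% to 19.1%) and 12.7% (11.6% to 13.8%), with intervals that met those of the members. Split by distance, the lower shares of members were not seen throughout. With the neighbour 5 to 10 kb away they were 14.8% and 10.9% for members, against 10.0% and 8.20% for middle sites. With the neighbour over 100 kb away the shares were 22.8% for members and 21.5% for weak sites in line A, and 17.5% and 18.9% in line B. Neighbouring sites share a library and a stretch of chromosome, and the part of local chromatin or read coverage in these shares was not tested.

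**Figure D4:**
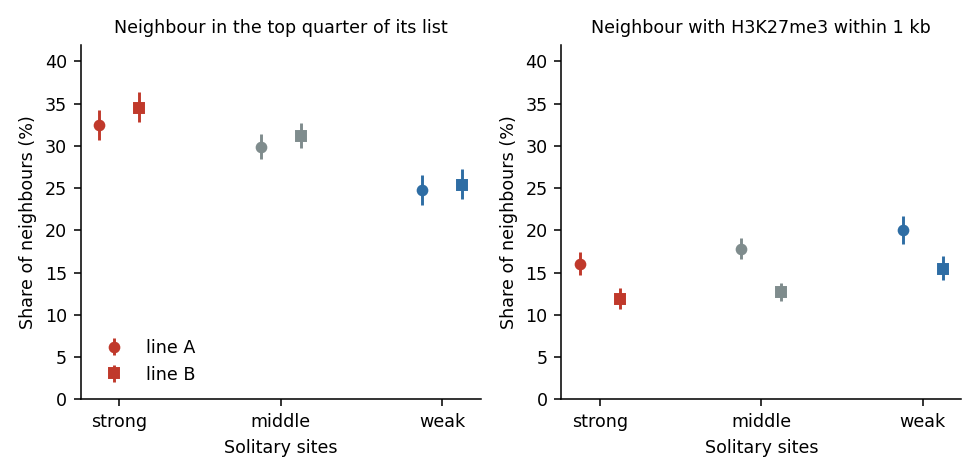
Next H3K4me3 summit beyond 5 kb of strong, middle and weak solitary sites (x axis), in line A (circles) and line B (squares), with 95% Wilson intervals. The share of neighbours at or above the 75th percentile of their list (left, percent) falls from 32.4% and 34.5% to 24.7% and 25.4%, and the share with H3K27me3 within 1 kb (right, percent) rises from 16.1% and 11.9% to 20.0% and 15.5%.

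Some members followed each other along a chromosome without any other shared H3K4me3 site between them. Of the 2744, 1049 stood in such runs (38.2%), in 341 runs of 2, 78 of 3, 24 of 4, 6 of 5 and 1 of 7. Members were 14.7% of all shared sites, so some follow each other by number alone. Whether 38.2% exceeds that was not tested, and the share in runs was not taken for the comparison sets. The longest run, on chromosome 18, held 7 members between 36469341 and 36674844, a span of 206 kb. Its scores were 75.5 to 107 (line A) and 123 to 190 (line B). At 6 of the 7 the summits lay 10 to 206 bases apart, and at the first, 36469341, they lay 744 bases apart. The next H3K27me3 summit of line B was 21629 bases from that first site, while that of line A was 373635 bases away. The shortest of the runs of 5 were on chromosome 11 at 95854411 to 96085117 (231 kb) and on chromosome 1 at 146569267 to 146859388 (290 kb). The closest pair of members was at 2905361 and 2910599 on chromosome 7, 5.24 kb apart, scoring 84.9 and 130 (line A) and 155 and 156 (line B). The median distance from a member to the next one was 265 kb.

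H3K27me3 was far from most members. Its next summit lay a median of 105 kb away in line A (interval 99.1 to 111 kb), whose list holds 25225 summits. In line B, with 20684 summits, the median was 141 kb (133 to 149 kb). A summit between 5 and 20 kb away was present at 295 members in line A (10.8%, Wilson interval 9.65% to 12.0%) and 207 in line B (7.54%, 6.61% to 8.59%). Over all 12786 shared sites without H3K27me3 within 5 kb the shares were 13.4% and 9.02%. The middle solitary sites had 11.9% and 7.55%, and the weak ones 16.1% (14.7% to 17.7%) and 11.7% (10.4% to 13.0%), so the intervals of members and weak sites did not meet in either line. The medians differed less. They were 96.2 kb and 134 kb for the weak sites and 101 kb and 145 kb for the middle sites, with intervals that met those of the members. At 2430 members (88.6%, 87.3% to 89.7%) no H3K27me3 of either line lay within 20 kb, and at 188 (6.85%) both lines had it. The share without it was 82.6% at the weak solitary sites. At the middle solitary sites it was 87.4% (86.3% to 88.5%) and at the strong grouped ones 87.5% (85.2% to 89.5%). These last 2 intervals met that of the members.

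**Figure D5:**
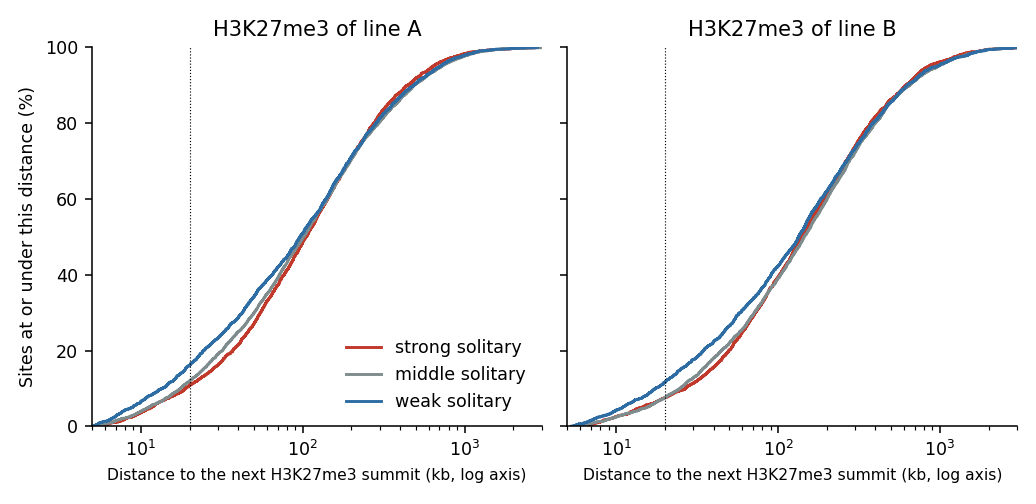
Cumulative share of solitary sites without H3K27me3 within 5 kb (y axis, percent) by the distance to the next H3K27me3 summit of line A (left) and line B (right) (x axis, kb, log axis), for strong, middle and weak sites, with a dotted line at 20 kb. At 20 kb the weak sites stand at 16.1% and 11.7% and the strong ones at 10.8% and 7.54%, and the curves come together beyond about 100 kb.

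The H3K27me3 summit nearest to a member scored below the median of its list more often than above, near or far. Of the 295 nearest summits of line A between 5 and 20 kb away, 90 scored above the median of the autosomal list (30.5%, Wilson interval 25.5% to 36.0%), and of those over 100 kb away 34.1% did. In line B the shares were 31.4% and 32.9%. These shares were not taken at the comparison sets, so they cannot be read as particular to the members. The members farthest from H3K27me3 were at 47781701 on chromosome 12 (2.96 Mb in each line) and at 48104264 on the same chromosome (2.78 Mb). They were followed by the remote site on chromosome 6 named above, and by 88589387 and 88389701 on chromosome 1 (2.58 and 2.44 Mb). The site at 47781701 had scores of 103 and 186, summits 2 bases apart and its next H3K4me3 summit 55.6 kb (line A) and 55.5 kb (line B) away. At 88589387 the summits of the lines fell on the same base, with scores of 74.1 and 158.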

How the data were processed

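Bovine embryonic stem cells of lines A and B gave 1 H3K4me3 and 1 H3K27me3 library each, and the 2 input libraries were not analysed here. BWA, MACS2 and the UMD3.1 build are named in the submitters' processing notes, without versions. The deposited lists hold 1-base summits (unit "other") and a score read as a −log10 p or q value, from its lowest values of 2.00 to 2.03. Whether it is p or q, the control used and the filters are not given in the sources used here. Depth is unknown. Positions are counted from 1.

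The members, comparison sets and tests were chosen with earlier results of these data known. Percentiles were taken over autosomal summits, distances to H3K27me3 from the nearer of a site's 2 summits, and density per Mb over the length up to a chromosome's last summit in the 4 lists. Named regions were the 10 best by mean rank, the 5 most remote from each mark, the 5 with the largest distance between lines, the longest runs and the sites beside each threshold. The highest score of each line, the closest pair and the site on chromosome 24 were added after values were seen. No test across lines was run, since an exact one over 2 lines cannot go below p 0.5. The steps were tested on simulated data: all 300 planted members were recovered among 2400 sites, with 0 wrong. A gene table of ARS-UCD2.0 was not used, because its coordinates belong to another assembly. Scripts ran in Python 3.11.15 (scipy 1.17.1, pandas 2.3.3, numpy 2.4.6), and plots were drawn with matplotlib 3.10.9.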

Additional observations from a re-analysis of the deposited data

How the results depend on the processing

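The choices varied were the distances, the score threshold, the anchoring line, mutual partners, single lines and weak H3K27me3 summits, and, added after seeing the data, H3K27me3 distances from line A alone. Of 112 values under 14 settings, 91 stayed within the interval, the SD between lines or 1.5 times the count, and 21 moved. Anchoring on line B and asking for mutual partners must return the same 2744 sites, because members are isolated, so their 16 values say nothing about stability. Distances from line A alone also gave these sites. Thresholds at the 50th and 90th percentile gave 5640 and 853 members, with rho 0.72 and 0.33 and 65.7% and 14.5% of members in runs. The share with H3K4me3 within 20 kb, 34.5% as the mean of lines, was 40.5% and 23.9% with 2 and 10 kb cleared of it, 32.5% with 10 kb cleared of H3K27me3 and 32.8% at the 90th percentile. The share with H3K27me3 within 20 kb, 9.15%, was 6.28% and 6.05% with 10 kb cleared of H3K4me3 or H3K27me3. It was 12.1% when weak H3K27me3 summits were ignored in the selection only. That setting let in sites with a weak summit within 5 kb, and the share still counted those summits. Chromosome 25 held 4.96% of members, and 3.96% with 10 kb cleared of H3K4me3. The interval of 3.96% takes in the chromosome's 3.69% of all shared sites, a base with no isolation cut. With either line alone deciding, members numbered 3467 to 4007, the median distance between lines was 45 to 46 bases, H3K4me3 within 20 kb 35.7% to 37.8%, rho 0.54 to 0.56 and members in runs 46.2% to 53.3%. A share within 20 kb falls by construction when more of the same mark is cleared. The H3K27me3 share likewise rises by construction when the selection ignores weak summits. The cause of the other moves was not tested. No paired analysis was possible because no result comes from a test: an exact paired test of 2 lines cannot give p below 0.5.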

Other observations

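The X chromosome and the unplaced sequences were outside the selection. Under the autosomal score thresholds, 5 of 760 shared H3K4me3 sites of the X were strong in both lines (0.658%, Wilson interval 0.281% to 1.53%), against 21.5% of the autosomal ones. Isolated and free of H3K27me3 were 61 of the 760 (8.03%), against 8831 of the 18712 autosomal sites. A single site of the X met every condition (0.132%, Wilson interval 0.0232% to 0.742%, against 14.7% of the autosomal sites), at 146775740, with scores of 101 (line A) and 249 (line B) and summits 101 bases apart. On unplaced sequences 3 of 40 shared sites met them, scoring 80.8, 128 and 108 (line A) and 119, 188 and 234 (line B). The last of the 3 lay 749 bases from the start of its sequence, so the 5 kb on that side could not be searched.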
